A study of Mus musculus with 4 samples.

Results

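Genes of the cytosolic ribosome were read on 4 Affymetrix arrays of sorted mouse bone marrow cells. Members were the genes with a symbol of the form Rpl or Rps plus a number, with an optional letter a, l or x, together with Rplp0, Rplp1, Rplp2 and Rpsa. A gene entered through probe sets whose only gene symbol in the platform annotation was its own. The probe set with the highest mean over the 4 arrays stood for it. This gave 46 of the 18194 genes tested, 24 of the large subunit and 22 of the small subunit, read by 100 probe sets. Another 28 symbols of this form, Rplp1 and Rpl5 among them, occur only on probe sets annotated to several genes and are not described by name.

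The arrays fall into a group labelled WT and a group labelled Alox15-/-, 2 arrays each, named as biological replicates. Both groups are C57BL/6 mice aged 8 weeks, and the second is named for loss of Alox15, the gene of a lipoxygenase that oxidises arachidonic acid. The cells were sorted as Lin- c-Kit+ Sca-1+, a gate that takes in multipotent progenitors beside stem cells. The labels give neither the number of animals per array nor any pooling, so each p-value reflects only how far these arrays spread, which may be partly technical. The study asked how expression in these cells differs between the genotypes.

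The ribosome is built from ribosomal RNA and one copy of nearly every ribosomal protein, in a small subunit that reads the mRNA and a large subunit that joins the amino acids. Their mRNAs begin with a run of pyrimidines, the 5′ TOP motif, through which mTOR and the RNA-binding protein Larp1 set their translation together. Blood formation is sensitive to the supply of these proteins: loss of one copy of several of them causes Diamond-Blackfan anaemia, and blood stem cells keep a low rate of protein synthesis.

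The sequences below show the surroundings of the start for members with a long pyrimidine run and for Rps25 and Rps27l, which the results describe at length. RefSeq promoters of build GRCm38.p6, which reach from 250 bases before the start to 50 after it, matched 40 of the 46 members through 48 start sites. Each window holds the 15 bases before the start and the 15 from it, 5′ to 3′ on the gene's strand, with the longest unbroken run of C and T in capitals.
Rpl7a (chr2:26910792-26910821, plus strand): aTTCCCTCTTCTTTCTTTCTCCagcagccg
Rpl35 (chr2:39005117-39005146, minus strand): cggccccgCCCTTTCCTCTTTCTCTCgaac
Rpl14 (chr9:120571502-120571531, plus strand): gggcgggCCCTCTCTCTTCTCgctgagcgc
Rps10 (chr17:27635230-27635259, minus strand): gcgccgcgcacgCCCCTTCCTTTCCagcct
Rplp2 (chr7:141447636-141447665, plus strand): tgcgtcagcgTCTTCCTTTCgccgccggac
Rps27l, upstream start of 2 listed (chr9:66946071-66946100, plus strand): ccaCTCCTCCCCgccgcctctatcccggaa
Rps25 (chr9:44407699-44407728, plus strand): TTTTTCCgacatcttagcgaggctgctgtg
A run of 8 or more stood in 18 of the 48 members' windows (37.5%) and in 12% of all 32841 windows. In Rpl7a, Rpl35, Rpl14, Rps10 and Rplp2 the marked run spans the annotated start, whereas in Rps27l and Rps25 it ends before it and so lies outside the annotated transcript. The count takes runs on either side of the start, and a run that crosses a window's edge, such as that of Rps25, counts only as far as the window reaches. The annotated start is a single base, so a motif a few bases away can fall outside a window.

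The letters CCGGAAG or their complement CTTCCGG, the core to which GABP and other ETS factors bind, stood in 20 of the 48 promoters (41.7%), against 8.86% of all promoters of the same 300 bases. Both strands were searched, and a match is a description of letters, not of binding. Rps25 and Rps10 carry it in the 100 bases before the start, shown here with the match in capitals.
Rps25 (chr9:44407614-44407713, plus strand): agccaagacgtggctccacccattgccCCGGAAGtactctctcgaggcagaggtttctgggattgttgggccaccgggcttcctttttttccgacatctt
Rps10 (chr17:27635245-27635344, minus strand): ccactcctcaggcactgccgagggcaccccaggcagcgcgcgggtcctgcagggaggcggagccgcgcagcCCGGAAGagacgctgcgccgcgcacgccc

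The targeted gene went against its label. Alox15 read 4.63 and 4.35 in WT against 10.68 and 10.75 under the Alox15-/- label on the log2 scale of the deposited values, a difference of 6.22 ± 0.15 (SE, limma adjusted p = 0.00133), so every direction given here is that of the labels. The place of the probe set relative to the deleted part was not analysed here. Of the markers of the gate and of stem cells, 8 of 10 were measured, Kit among them and Ly6a, the gene of Sca-1, not, and all 8 exceeded the brightest of the 27 bacterial controls, which read 4.95 to 5.17. Their summed linear signal, in units of 1000, was 15.3 and 14.6 in WT against 12.6 and 12.5 under the Alox15-/- label. Of the 8, 6 had a negative difference, the largest that of Hlf at -0.77, while Slamf1 was at 0.32 and Cd34 at 0.06. Mature neutrophil markers summed to 0.759 and 1.54 in WT against 2.83 and 2.2 in the other group, with 9 of 10 at a positive difference, Itgam at -0.51, and Mmp8 below the brightest bacterial control throughout. Sums of B cell, T and NK cell, and endothelial and stromal markers were also higher on both arrays of the Alox15-/- label. In these lists 5 of 7, 5 of 6 and 6 of 8 genes had a positive difference. Linear sums follow genes of strong signal or large difference, such as Vpreb1 (1.03), Nkg7 (0.51) and Sparc (1.32). Pax5 and Vpreb3, Cd4, and Kdr and Cxcl12 were below 0. The gap between the 3′ and 5′ control probe sets of Gapdh was 2.37 and 2.39 in WT against 2.14 and 2.17 under the Alox15-/- label, and that of 18S ribosomal RNA was 1.38 and 1.27 against 1.22 and 1.2.

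Signals of ribosomal protein genes were almost the same in both groups. Of the 46 members, 38 differed by less than 0.1 on the log2 scale (82.6%), against 37.7% of all genes tested. Most members are bright, and among other genes with a mean of 12 or more the share was 75.3%, so much of this contrast goes with signal level. The median difference, Alox15-/- minus WT, was -0.01, with 21 members above 0 and 25 below, while over all genes it was 0.02. The median size of the difference regardless of sign was 0.0319 for members and 0.14 for all genes. The largest differences were those of 3 small subunit genes, Rps4l, Rps27l and Rps25. The other 43 members lay between -0.14 and 0.16. The difference of Rps25 was not seen at a brighter probe set that lists Rps25 with other genes, as described below. In such bulk samples, fewer cells of a type and less RNA per cell cannot be told apart.

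No member passed the threshold. In limma 0 of 46 had an adjusted p under 0.05, against 0.0055% of all genes, which is Alox15 alone. At an unadjusted p under 0.05, 1 member was higher, Rps4l, and 1 lower, Rps25, against 4.2% and 3.57% of all genes. Groups did not overlap, with the arrays labelled Alox15-/- higher, for 7 members (21.4% of all genes), and lower for 8 (17.1% of all genes). Missing the threshold does not show that levels were equal: the 95% interval of the difference lay within 0.5 on either side of 0 for 39 members and within 0.3 for 0. These intervals rest largely on the spread that limma shares over all genes. The members' own residual SD was 0.0298 at the median, against 0.15 over all genes, while their median SE was 0.126. With a prior spread that depends on signal the median SE was 0.038, and 7 members had an unadjusted p under 0.05 (15.2%, against 8.68% of all genes) and 0 an adjusted one.

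**Figure D1:**
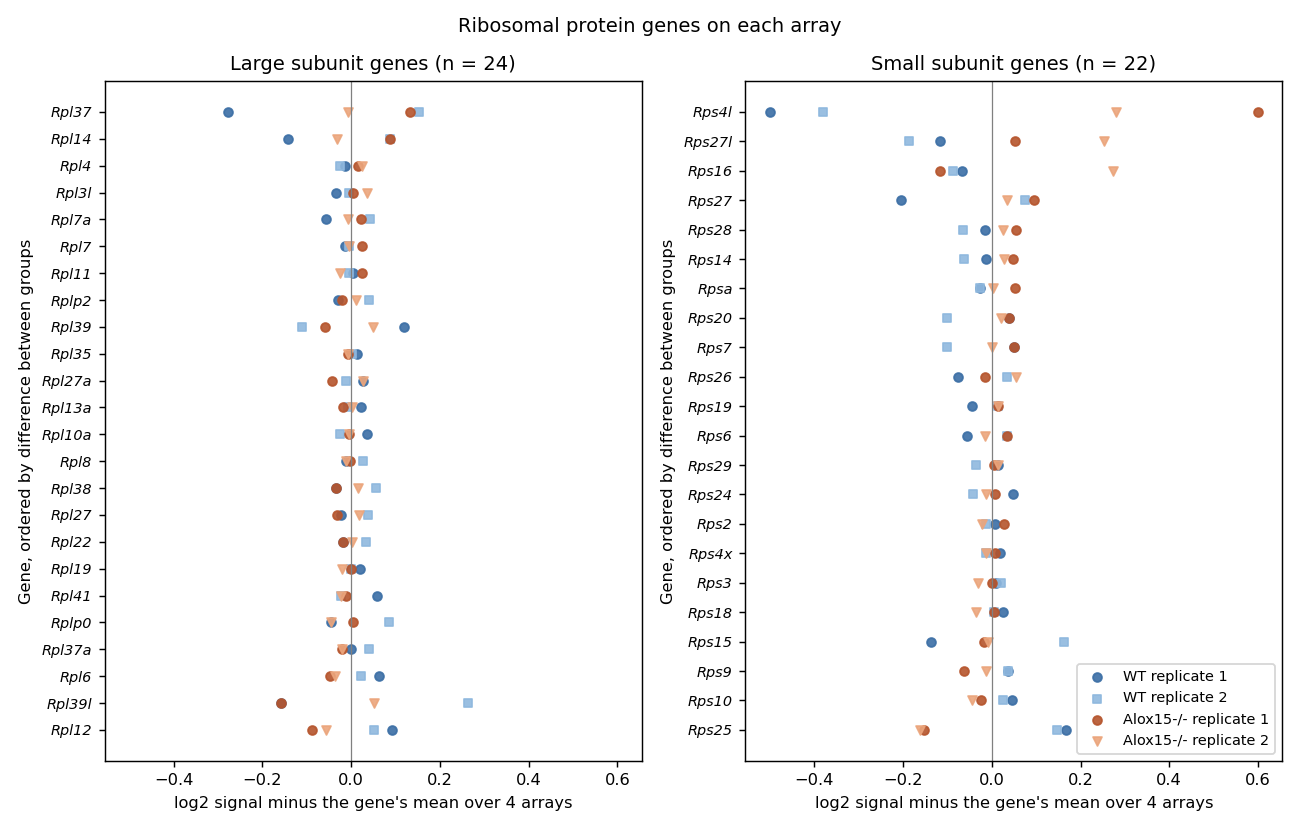
Log2 signal of each member on each array, less the gene's mean over the 4 arrays (x axis), with genes of the large subunit (left, 24) and small subunit (right, 22) ordered by the difference between groups; each point is 1 array. Most genes hold all 4 points close to 0, and the groups of Rps4l, Rps27l and Rps25 stand apart.

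Most members give signals near the top of the scale. The mean was 12 or more for 33 members and for 345 of all genes, and the highest value on each array was 14.39. Signal of a probe set depends on its probes as well as on the transcript, so these values do not rank members by abundance. All 33 bright members differed by less than 0.1, and so did 235 of the 312 other genes as bright (75.3%). The median size of the difference was 0.0238 for bright members and 0.0534 for those other genes.

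**Figure D2:**
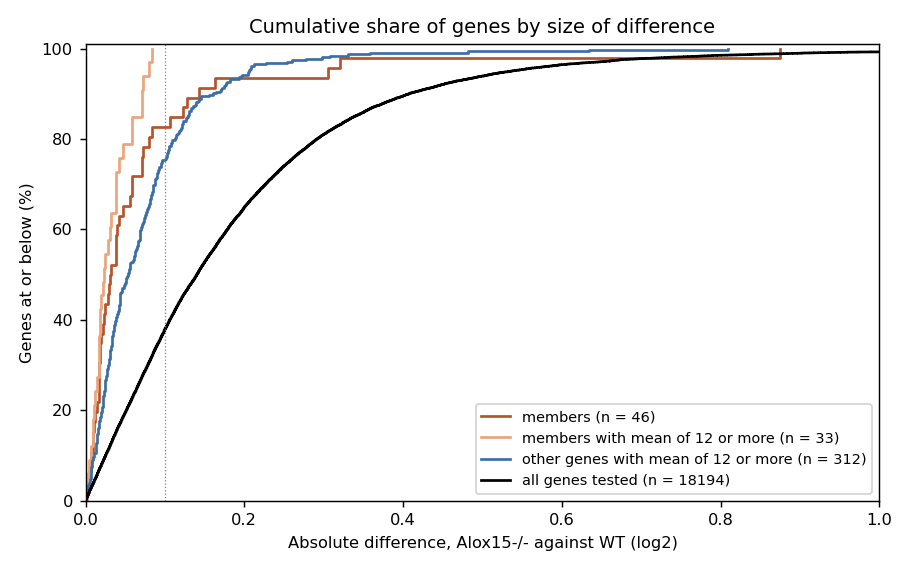
Percent of genes (y axis) whose absolute difference between groups on the log2 scale is at or below the value on the x axis, for the 46 members, the members with a mean of 12 or more, the 312 other genes with such a mean, and all 18194 genes. At the dotted line at 0.1 the curves stand at 82.6%, 100%, 75.3% and 37.7%.

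Large and small subunit genes were then set side by side. The median difference was -0.01 over 24 large subunit genes, with 7 above 0 and 17 below, and 0.03 over 22 small subunit genes, with 14 above 0 and 8 below. The large minus small difference of medians was -0.040. On single arrays, the median deviation of large subunit genes from their means was -0.013 and 0.026 in WT against -0.009 and -0.005 under the other label. The second WT array stood highest and the first lowest, so the groups overlapped. For small subunit genes it was -0.003 and -0.009 in WT against 0.013 and 0.003 in the other group. All genes tested separated likewise, at -0.005 and -0.013 against 0.007 and 0.011. Among members with a mean of 12 or more the medians were -0.02 for the large and 0.00 for the small subunit.

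Rps4l, an autosomal relative of Rps4x on chromosome 6, had the largest difference. Its only probe set read 5.46 and 5.58 in WT against 6.56 and 6.24 under the Alox15-/- label. Both of the latter were higher, and the difference was 0.88 ± 0.16 (SE), 1.83-fold, with a 95% interval of 0.46 to 1.29. Its p of 0.00247 ranked 90 among all genes, and its limma adjusted p was 0.487. Without 1 array the difference ran from 0.71 to 1.04. Rps4x, its partner on the X chromosome, read 13.19 and 13.16 against 13.18 and 13.16, a difference of -0.01. All 4 values of Rps4l lay above the bacterial controls of the same arrays. The WT values were only a little above the brightest control, however, and below the array median of 6.42. They stood at the level of Rpl3l in WT, 5.56 and 5.59, so they do not establish expression of Rps4l in WT. Of the values under the Alox15-/- label, 6.24 was also below that median and 6.56 above it.

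Rps27l, a close relative of Rps27 that p53 induces, lies on chromosome 9. It read 11.17 and 11.10 in WT against 11.34 and 11.54 under the Alox15-/- label. The groups did not overlap, and the difference was 0.31 ± 0.14 (SE), with a 95% interval of -0.05 to 0.66 and a limma adjusted p of 0.677. Its 3 probe sets differed by 0.26 to 0.31, all in one direction and each with the second Alox15-/- array highest. Without that array the difference was 0.20, and without the first 0.41. Rps27, at a dim probe set, read 5.72 and 6.00 in WT against 6.02 and 5.96 in the other group, with overlap and a difference of 0.13. A brighter probe set that lists Rps27 with other genes differed by 0.00.

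Rps25, which initiation at several viral internal ribosome entry sites requires, also lies on chromosome 9 and had the largest difference downward, at its only probe set annotated to it alone. That probe set read 9.86 and 9.84 in WT against 9.54 and 9.53 under the Alox15-/- label. Replicates differed by far less than the groups, and the difference was -0.32 ± 0.13 (SE), and in limma its p was 0.0477 and its adjusted p 0.639. Leaving out any 1 array kept it between -0.33 and -0.31. A brighter probe set that lists Rps25 among several genes read 12.90 and 12.99 in WT against 12.98 and 12.93 in the other group. There the groups overlapped and the difference was 0.01 ± 0.13 (SE, limma adjusted p = 0.989), so the direction at the dimmer probe set does not hold across the probe sets that list Rps25. No brighter shared probe set lists Rps4l or Rps27l. The sums of gate, neutrophil, B cell, T and NK cell, and endothelial and stromal markers separate the same groups as these 3 genes. So do the Gapdh and 18S gaps. Such a sum can rest on few genes of its list, and each of these lists held genes of both signs. The part of the sums and gaps in the differences was not tested.

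**Figure D3:**
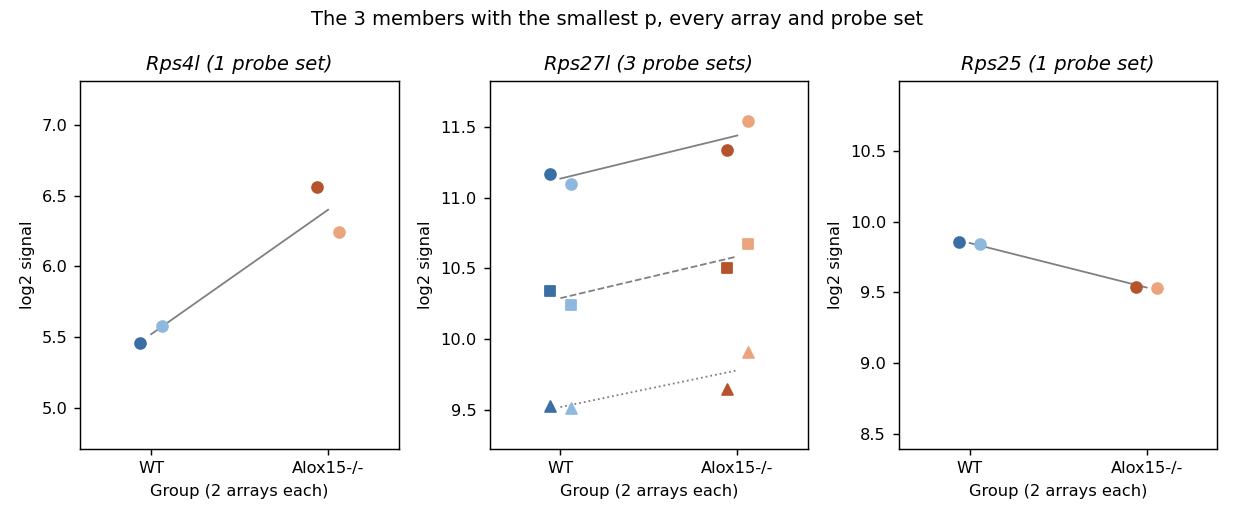
Log2 signal of Rps4l, Rps27l and Rps25 in WT (blue) and Alox15-/- (orange) arrays; each point is 1 array (lighter for replicate 2), each marker shape a probe set, and each line joins the group means of a probe set. The vertical axes span the same width, and all 3 probe sets of Rps27l slope upward.

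**Figure D4:**
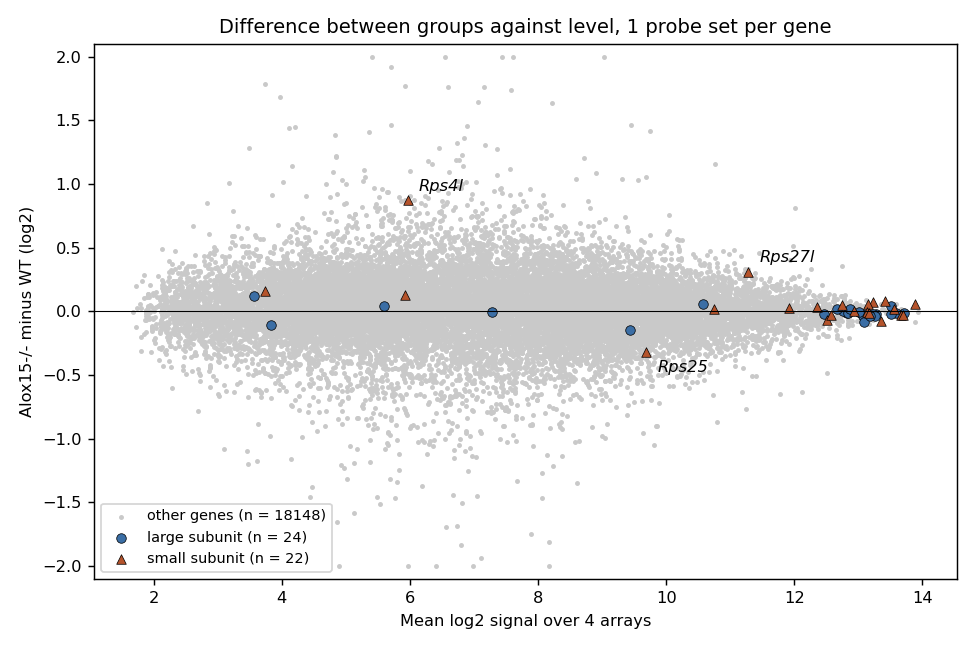
Difference between groups on the log2 scale (y axis) against mean log2 signal over the 4 arrays (x axis) for members of the large (circles) and small subunit (triangles) and for all other genes (grey); the 10 genes beyond 2 on either side are drawn at the edge. Members cluster near 0 at the bright end, away from which Rps4l, Rps27l and Rps25 are labelled.

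The other members follow by their place in the ribosome. In the acidic stalk that recruits elongation factors, Rplp0 read 13.14 and 13.27 in WT against 13.19 and 13.14 under the Alox15-/- label, a difference of -0.04. Rplp2 of the same stalk differed by -0.01. Rpl12, which sits at the base of that stalk, read 9.53 and 9.49 against 9.35 and 9.38. Its groups did not overlap, at a difference of -0.14 ± 0.13 (SE, limma adjusted p = 0.816). A brighter probe set that lists Rpl12 with other genes differed by -0.01. Rpl11, which binds 5S RNA and can inhibit Mdm2, read 12.77 and 12.76 against 12.79 and 12.74 and differed by 0.00.

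Of genes at the peptide exit tunnel 4 of 8 were measured, and they differed by -0.02 to 0.04. Rpl4, whose loop lines the tunnel, read 13.50 and 13.49 in WT against 13.53 and 13.54 in the other group, and Rpl39, also of the tunnel and on the X chromosome, 7.40 and 7.17 against 7.22 and 7.33. Rpl4 was higher in both arrays labelled Alox15-/- by 0.04, as for 21.4% of all genes. Rpl35 was lower in both, at -0.01, as for 17.1% of all genes. The groups of Rpl39 overlapped. Rpl6, a protein of the solvent side, read 13.16 and 13.12 against 13.05 and 13.06, with no overlap and a difference of -0.08. Rpl14, Rpl37a and Rpl41 differed by 0.06, -0.04 and -0.03. On chromosome 11, where Alox15 lies, Rpl19, Rpl27 and Rpl38 each differed by -0.02.

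In the small subunit, genes of mRNA entry and decoding differed by -0.07 to 0.00 (3 of 4 measured), and genes of mRNA exit and the platform by 0.04 to 0.08 (4 of 5 measured, all above 0). Rps9, at the entry, read 13.40 on both WT arrays and 13.30 and 13.35 in the other group, a difference of -0.07. Rps3, which helps unwind incoming mRNA, differed by -0.03. On the exit side Rps28 read 13.40 and 13.35 against 13.47 and 13.44, a difference of 0.08. Rps14, whose loss of one copy causes the anaemia of the 5q- syndrome, differed by 0.07, and Rpsa, which also serves as a laminin receptor, by 0.06. The groups of Rps28, Rps14 and Rpsa did not overlap at the probe sets used, with the Alox15-/- arrays higher, as for 21.4% of all genes. At their other probe sets Rps14 differed by -0.00 and Rpsa by 0.03, both with overlap, and Rps28 by 0.04 and 0.03. Rps20 of the head differed by 0.06 and Rps10 of the beak by -0.07, though the other probe sets of Rps10 were above 0.

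Genes mutated in Diamond-Blackfan anaemia were measured for 11 of 18. None passed the threshold in either direction in limma, and 0 had an unadjusted p under 0.05. Their median difference was 0.02, with 7 above 0 and 4 below, and 10 of 11 differed by less than 0.1. Rps19, the gene most often mutated, read 11.87 and 11.93 in WT and 11.93 on both other arrays. Beside Rps27, Rps28 and Rps10 above, Rps7 had the next largest difference, 0.05.

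Probe sets of 3 members, Rpl37, Rps16 and Rpl39l, stayed under the brightest bacterial control of each array, so these readings show no level of the gene. Rpl39l, a relative of Rpl39 known from testis, read 3.67 and 4.09 in WT against 3.67 and 3.88 in the other group. Rpl3l, the relative of Rpl3 that striated muscle uses, read 5.56 to 5.63 and differed by 0.04. That is only a little above the control and below the array median of 6.42, so it does not establish expression. Rpl37 and Rps16, core members of the ribosome in every cell, differed by 0.12 and 0.16 with overlapping groups, at probe sets that read 3.28 to 4.01. Brighter probe sets that list them with other genes differed by -0.01 and -0.00.

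Several probe sets were available for 23 members, and their differences had one sign for 10 of these. Over all 100 probe sets the median difference was 0.01, and 74 differed by less than 0.1. The dimmest probe set gave the widest value for Rps6, Rps10 and Rpl41. For Rps6, whose product is the S6 kinase substrate, the difference was 0.02 at the probe set used and -0.55 at the other, the lowest of the 100. For Rps10 the difference was -0.07 at the brightest and above 0 at every other probe set, from 0.01 to 0.39 at the dimmest. For Rpl41, which encodes a very short peptide, the differences ran from -0.03 to -0.35. Of the probe sets used for the 46 members, 13 carry the suffix x and 1 the suffix s, which mark probes shared with other sequences. Ribosomal protein genes have many processed pseudogenes, so signal from such copies cannot be told apart here.

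Members with a run of 8 or more pyrimidines within the start-site window (18) and those with a promoter but without it (22) both had a median difference of -0.01. The 20 members with CCGGAAG or its complement and the 20 without also both had -0.01. Rps27l has such a run, before its upstream start. The run of 7 shown for Rps25 is cut by the edge of its window. It goes on past 8 bases in the 100 bases shown above, so Rps25 falls among the 22 only through that edge.

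Other genes of ribosome production and translation were read from lists. Of the ribosomal genes with other kinds of name, Fau, which encodes a small subunit protein fused to a ubiquitin-like one, differed by -0.04, Rpl22l1 by 0.05 and Rpl7l1 by 0.32, the last with overlapping groups. Among 34 of 35 ribosome assembly factors measured, 0 passed in either direction and the median was 0.02, with differences from -0.21 for Rrs1 to 0.24 for the endonuclease gene Nob1. The 14 of 17 genes of RNA polymerase I, which transcribes ribosomal RNA, had a median of 0.00 and 0 passed in either direction. In that list Rrn3, an initiation factor, was at 0.30 and Taf1a at -0.31. Initiation factors (21 of 26) had a median of 0.02 and elongation factors and other 5′ TOP genes (9 of 10) -0.03, with 0 past the threshold in each direction. Eef1a1 differed by -0.03 and Eef1d, whose groups did not overlap, by -0.11.

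Of the regulators of ribosomal protein production 11 of 13 were measured, with a median of -0.03 and a median size of 0.223 regardless of sign (0.14 over all genes), and 0 passed in either direction. At an unadjusted p under 0.05 limma placed 1 higher and 1 lower, against 4.2% and 3.57% of all genes. Mycn, a Myc family factor, read 10.40 on both WT arrays and 9.87 and 9.75 in the other group, a difference of -0.59 ± 0.13 (SE, limma adjusted p = 0.517). Max, the partner with which Myc factors bind DNA, read 7.28 and 6.92 against 7.86 and 7.83, a difference of 0.75 ± 0.17 (SE, limma adjusted p = 0.52). Rptor differed by -0.33 with overlapping groups. Eif4ebp2 differed by 0.27, Larp1 by 0.24 and Myc itself by -0.22, without overlap. In the whole list groups did not overlap for 3 genes upward and 3 downward, against 21.4% and 17.1% of all genes. Of the 11 measured, 5 differed by less than 0.1.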

How the data were processed

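The authors deposited log2 values per probe set, made with Affymetrix Expression Console 1.1 and RMA per the submitters' processing notes; this method corrects background, makes the arrays' distributions equal and combines probes into 1 value. Of 45101 probe sets, 34958 had 1 symbol, 932 several and 9211 none. Probe sets with 1 symbol gave 18194 genes. Gene identifiers of all 46 members matched the RefSeq gene table (GRCm38.p6), used for chromosomes only. Alox15-/- minus WT was tested over all genes in R 4.3.3 by limma 3.58.1, two-sided and without block or filter on dim genes; p-values were adjusted by Benjamini-Hochberg at 0.05; the code was tested on simulated data. Group sizes of 2 limit the precision. Members and lists were chosen with earlier results of these data known, and list medians carry no test. Named members were the 10 largest differences each way, stalk and 5S RNA genes, paralogs with their partners, and members on the X chromosome, and up to 4 genes for each other list. Rpl19, Rpl27 and Rpl38 and the 5′ control readings were added after their values were seen. So were Rpl12's place at the stalk, single genes named for their role and single genes named from the marker lists. Marker lists other than those for the gate and neutrophils summed, in units of 1000 for WT and then Alox15-/-, to 0.286 and 0.275 then 0.301 and 0.232 (erythroblast), 0.917 and 1.14 then 2.2 and 1.23 (B cell), 0.65 and 0.659 then 0.873 and 0.838 (T and NK cell), 4.09 and 4.36 then 5.34 and 4.29 (macrophage and monocyte) and 0.816 and 0.784 then 1.05 and 0.831 (endothelial and stromal). Figures used matplotlib 3.10.9.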

Additional observations from a re-analysis of the deposited data

How the results depend on the processing

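With 2 arrays per group the values below describe these arrays only. No alternative called a member. Over all genes, 22 were called with a mean-dependent prior variance, 3 at the probe set of lowest mean and 0 without any 1 array. Members at an unadjusted p under 0.05 numbered 7 with that prior, 1 at the probe set of lowest mean, 1 with the replicate block, 1 without the alternative paralogs and 1 without any 1 array. Non-overlapping groups numbered 24 to 35 without 1 array, where a single array stands for a group, which is 52.2% to 76.1% of members against 65.4% to 73.1% of all genes. The median difference of all members, -0.007, became 0.010 over the mean of a gene's probe sets and 0.013 at the probe set of lowest mean, and ran from -0.010 to 0.004 without 1 array. That of large subunit genes, -0.014, became 0.007 at the probe set of lowest mean and ran from -0.035 to 0.004. That of small subunit genes, 0.026, became 0.019 without the paralogs, ran from 0.007 to 0.025, and was 0.004 for members with a mean of 12 or more and 0.008 with probe sets of several symbols, both chosen after seeing the data. The large minus small difference stayed between -0.044 and -0.017 over all settings run, with -0.017 found without the second WT array. Its pooled SD between replicates was 0.024. The settings reuse the same arrays, so the constant sign does not show that the contrast exceeds the spread between replicates. The replicate numbers did not pair the arrays (correlation of deviations -0.02 over genes), and the block changed no other call. Rps4l, Rps27l, Rpl12, Rpl6, Rps9, Rps28, Rpsa and Rpl3l kept their sign in all settings run for them, though Rpl12 was at -0.01 with probe sets of several symbols. With those, signs changed for Rps25 (0.01), Rpl37 (-0.01) and Rps16 (-0.00). Signs changed at other probe sets, averaged and dimmest, for Rpl37a (0.01 and 0.13), Rps10 (0.08 and 0.39) and Rps3 (0.03 and 0.05), and at the dimmest for Rps14 (-0.00). Without 1 array they changed for Rpl11 (-0.02 to 0.03), Rpl14 (-0.06 to 0.17), Rpl37 (-0.09 to 0.34), Rpl39 (-0.12 to 0.11), Rpl39l (-0.32 to 0.10), Rpl41 (-0.07 to 0.01), Rplp0 (-0.10 to 0.02), Rplp2 (-0.04 to 0.03), Rps16 (-0.03 to 0.36), Rps20 (-0.01 to 0.13), Rps27 (-0.02 to 0.27) and Rps4x (-0.02 to 0.00). The cause was not tested.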

Other observations

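Probe sets annotated to several genes hold much of the ribosome. Of these, 110 list at least 1 symbol of the ribosomal form, covering 43 symbols, 15 of which are members through another probe set. Their median difference was 0.02, from -0.59 to 0.78, and 83 of the 110 differed by less than 0.1. With such probe sets allowed, 1 per symbol, 74 symbols had a median of -0.00, from -0.11 to 0.88, and 71 differed by less than 0.1.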
